A study of Mus musculus with 2 samples.

Results

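USF1 binding was examined at 8 clock genes chosen by name: Clock, Arntl (also written Bmal1), Npas2, Rora, Dbp, Tef, Hlf and Nfil3, out of 21269 protein-coding genes of known strand. USF1 is a transcription factor of the bHLH-ZIP family, and ChIP-seq with a USF1 antibody maps where it sits on chromatin. The cells were CH12.LX, an immortalized B-cell lymphoma line of female mouse origin, strain B10.H-2aH-4bp/Wts, of unknown age, with no treatment named. There was 1 group of 2 biological replicates, both of this 1 line, and no other condition, so sites were compared between the replicates and with the other regions of the same list. Binding is given as the authors' signal value of a region, whose scale is not given. Read depth is unknown.

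In the circadian feedback loop, CLOCK or its relative NPAS2 pairs with BMAL1, the product of Arntl, and the pair binds E-boxes, of which CACGTG is the classic form, to switch on clock and output genes. RORA is a nuclear receptor that activates Arntl through ROR elements. Dbp, Tef and Hlf encode the PAR-bZIP factors, clock outputs that activate genes through D-boxes, and NFIL3 (E4BP4) is a repressor that competes for the same D-boxes. USF1 recognises the same CACGTG core as CLOCK and BMAL1, and in mice Usf1 has been described as a genetic suppressor of the Clock mutation.

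USF1 sites were found at the PAR-bZIP genes Dbp and Tef and inside Rora. The Rora site was far from the RefSeq 5′ ends, but the Rora peak in mm9 lay near the start of a shorter transcript. Clock, Arntl, Npas2, the PAR-bZIP gene Hlf and Nfil3 had no site in the thresholded mm10 lists. A site was counted when its summit, the highest point of a region, lay within 5 kb of an annotated 5′ end or inside the gene. In the authors' optimal list in mm10, 3 of the 8 genes had such a site, where 22.8% of all protein-coding genes did, so having no site was the more common state among all genes too. Within 1 kb of a 5′ end the count was 2 of 8, against 12.6% of all genes. Tef had 3 sites, Dbp had 2 and Rora had 1. The same 6 regions stood in the stricter conservative list. Of all genes, 5.14% had 2 or more optimal sites by the same rule and 1.43% had 3 or more. At Tef, 2 of the 3 sites had summits only 202 bp apart, and the authors' mm9 list held 2 peaks at the gene instead of 3.

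All 6 sites were stronger than the median optimal region by the signal of the optimal list. By replicate 1 alone the Tef site 144 bp upstream of the downstream start was above only 45.0% of optimal regions, and by replicate 2 above 61.4%. The other 5 were above the median in both replicates. The median signal of all 6 sites was 228, against 72.3 over all 8108 optimal regions. All 6 also overlapped a region in each replicate's own list, as 99.3% of all optimal regions did. The optimal list was derived from the replicates' lists, so this overlap is partly built in.

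A second list, in mm9, was the one that could be read against a genome sequence. It placed 7 peaks at 4 of the 8 genes: 3 at Dbp, 2 at Tef, 1 at Rora and 1 at Nfil3. By the same rules 25.9% of all protein-coding genes had an mm9 summit within 5 kb or inside the gene, and 14.3% had one within 1 kb of a transcript's 5′ end. All 7 peaks had an E-box within 50 bp of the summit. Of these, 4 held CACGTG and 3 held the CA-centred E-box CACATG without it. Over all 10624 mm9 peaks the shares were 53.3% and 30.1%, and 16.6% held neither. The sequences are shown because they carry this difference between the sites. They run 5′ to 3′ on the strand of the gene, with the E-box in capitals (CACATG reads CATGTG where it lies on the other strand). They come from the mm9 (NCBIM37) genome, and peaks that overlap an annotated untranslated exon are cut to the 30 bases around the E-box.
Tef, upstream start, chr15:81632964-81632993, plus strand: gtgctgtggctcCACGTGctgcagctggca
Tef, downstream start, chr15:81641472-81641501, plus strand: ctgctgccgctcCACGTGaccctcggggct
Dbp, upstream of the start, chr7:52960184-52960284, plus strand: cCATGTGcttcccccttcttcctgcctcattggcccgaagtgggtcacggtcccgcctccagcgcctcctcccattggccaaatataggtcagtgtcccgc
Dbp, intron 1, chr7:52961428-52961528, plus strand: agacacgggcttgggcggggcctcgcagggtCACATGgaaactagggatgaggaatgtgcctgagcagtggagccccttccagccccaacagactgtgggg
Dbp, intron 2, chr7:52963143-52963243, plus strand: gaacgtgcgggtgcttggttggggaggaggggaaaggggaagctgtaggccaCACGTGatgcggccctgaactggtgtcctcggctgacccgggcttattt
Rora, inside the gene, chr9:69137669-69137698, plus strand: atgtcagccggtCACATGgagcctcttatg
Nfil3, upstream of the start, chr13:53077028-53077128, minus strand: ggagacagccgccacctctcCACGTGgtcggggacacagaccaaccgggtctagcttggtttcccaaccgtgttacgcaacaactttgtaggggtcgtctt

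Clock, which encodes a subunit of the dimer that binds E-boxes, had no site in the optimal, conservative or mm9 list. The gene spans chr5:76209868-76305603 on the minus strand of mm10. In replicate 2 a relaxed region of signal 10.3 lay 488 bp upstream of a 5′ end, at rank 16299 of 44551, and replicate 1 had none within 1 kb. The relaxed lists hold background as well as peaks. Of all protein-coding genes, 22.6% had a relaxed summit of each replicate within 1 kb of a 5′ end, and 3 of the 8 did, namely Dbp, Tef and Nfil3.

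Arntl, the gene of BMAL1, is at chr7:113178471-113314126 on the plus strand of mm10 and likewise had no site in the thresholded or mm9 lists. Replicate 1 had a relaxed region of signal 7.47 at 428 bp upstream of a 5′ end, rank 24894 of 25978, and replicate 2 had none within 1 kb. Of the 2 annotated RefSeq promoters of Arntl, 1 held TAGGTCA, the core of the ROR element, which stood in 2.35% of all promoters of the same length (300 bp, searched on both strands). Neither held CACGTG.

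Npas2, whose product can replace CLOCK, spans 169.5 kb at chr1:39193702-39363240 on the plus strand and had no site by the rule. Just outside it, an optimal summit of signal 41.8 lay 179 bp past the 3′ end of the gene, and another of 54.2 lay 4593 bp past it. The second of these was 18 bp upstream of the 5′ end of Rpl31, a ribosomal protein gene. The first was 4432 bp upstream of the same 5′ end, which was the nearest to both summits. In mm9 the peak 185 bp past the end had a signal of 47.7 and CACGTG within 50 bp of its summit.

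Rora, which lies at chr9:68653404-69388246 on the plus strand of mm10, had 1 site, at chr9:69289805-69289918 in mm10, with a signal of 161 that was higher than that of 76.1% of optimal regions. The signal was 69.5 in replicate 1 and 91.5 in replicate 2, with summits 4 bp apart. The summit lay 636 kb downstream of the nearest 5′ end in the RefSeq table, inside a gene of 735 kb. Of the 223 protein-coding genes of at least 500 kb, 33.2% had an optimal site by the same rule. In mm9, where every transcript of Gencode vM1 was used, the Rora peak was 181 bp downstream of the 5′ end of the shorter transcript Rora-002, in an annotated exon. Its signal there was 205, above 81.1% of mm9 peaks. The RefSeq table used in mm10 held no 5′ end near its site, and positions were not converted between the builds.

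Dbp, a PAR-bZIP gene and a well-described CLOCK and BMAL1 target with E-boxes in its introns, had its stronger site in the gene and not at its start. Dbp is a short gene at chr7:45705100-45710203 on the plus strand of mm10. The region inside it, at chr7:45707709-45707913, had a signal of 289, with 149 in replicate 1 and 138 in replicate 2. Its summit was 2567 bp downstream of a 5′ end. The region upstream of the start, chr7:45704714-45705013, had a signal of 167, with 84.1 in replicate 1 and 81.3 in replicate 2, and its summit was 236 bp upstream of the outermost 5′ end. The site inside the gene was the higher of them in both replicates. The upstream summit also lay 177 bp past the 3′ end of Car11, a carbonic anhydrase-related gene on the same strand.

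The Dbp peaks also differed in sequence. In mm9 the peak in intron 2 had a signal of 518 and a CACGTG whose first base was 2 bp from the summit. The region held 2 copies of CACGTG, 113 bp apart from first base to first base. The upstream peak had a signal of 196, no CACGTG in the region, and a single CACATG at the edge of the window, 49 bp from the summit. Nearer to that summit lay 2 CCAAT boxes (CCAAT on either strand, found in 17.0% of all mm9 windows of 101 bp) and 1 TAGGTCA, found in 2.47%. A further mm9 peak, in intron 1, was weak at 34.8, above only 15.3% of mm9 peaks, and had CACATG 19 bp from its summit.

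Tef, the second PAR-bZIP gene, had the highest signal of the 8 genes and was bound near each of its 2 annotated 5′ ends in mm10. The gene spans chr15:81802673-81826863 on the plus strand. The strongest region, chr15:81810917-81811191, had a signal of 413, above 93.1% of optimal regions, and its summit lay 346 bp upstream of the downstream 5′ end. Its signal was 183 in replicate 1 and 225 in replicate 2. A further region beside it, chr15:81811205-81811385, had a summit 202 bp away, a signal of 92.3, and 31.0 in replicate 1 and 52.6 in replicate 2. The region at the upstream 5′ end, chr15:81802449-81802650, had a signal of 303, with 134 in replicate 1 and 169 in replicate 2, and its summit was 122 bp upstream of the start. In both replicates the region 346 bp upstream of the downstream start ranked above the one at the upstream start.

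**Figure D1:**
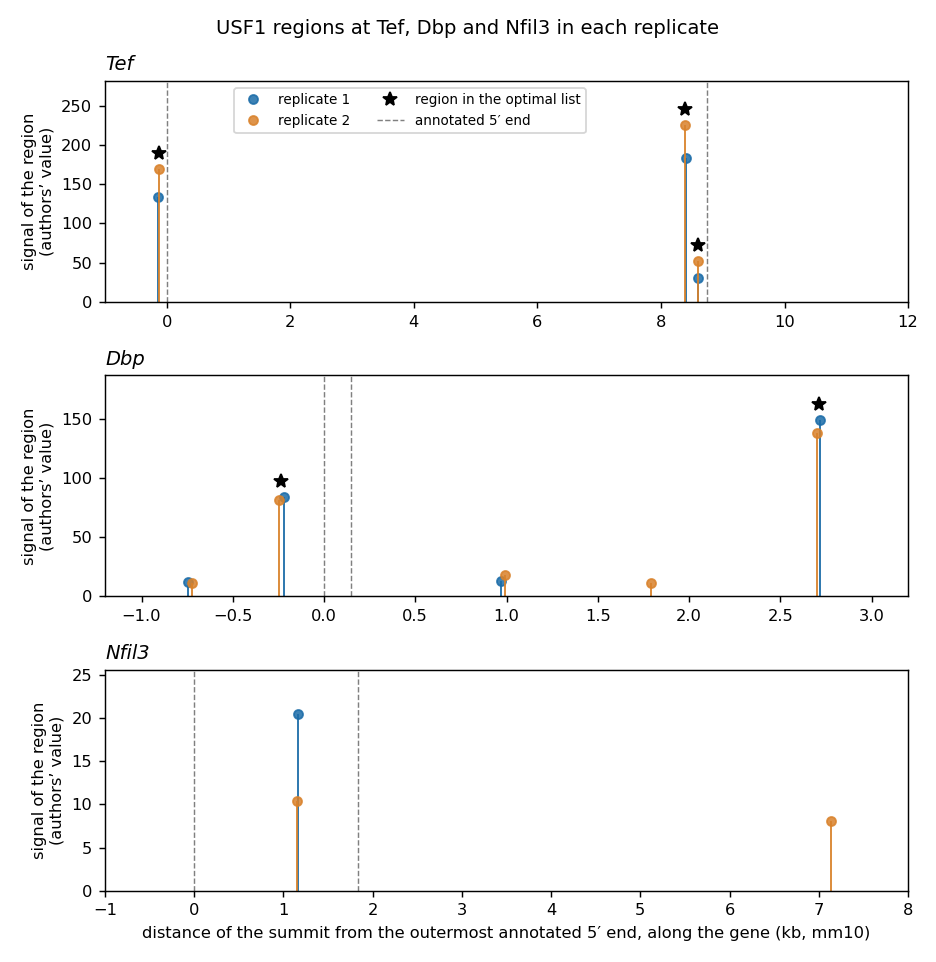
Signal of every region of each replicate's relaxed list (authors' value, vertical axis) at Tef, Dbp and Nfil3, against the distance of its summit from the outermost annotated 5′ end in mm10 (kb, horizontal axis). Circles mark replicates 1 and 2, dashed lines the annotated 5′ ends, and stars the regions that are also in the optimal list: 3 at Tef, 2 at Dbp and 0 at Nfil3.

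In mm9 the Tef region at the downstream start was 513 bp wide and held 3 copies of CACGTG, spaced 111 and 222 bp apart. Its signal was 1095, above 95.8% of mm9 peaks, and its summit was 20 bp past the 5′ end of transcript Tef-008 and 348 bp before that of another transcript. The peak at the upstream start had a signal of 474 and 1 CACGTG, whose first base was 5 bp before the summit. Its summit was 122 bp before the 5′ end of one transcript and 130 bp past that of a longer one. Among the RefSeq promoters of the 8 genes, both of Tef held CACGTG and none of the other 10 did, where 7.91% of all promoters held it.

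Hlf, the third PAR-bZIP gene, at chr11:90336535-90390917 on the minus strand of mm10, had no site in any thresholded list, no mm9 peak, and no relaxed region of either replicate within 1 kb of its 5′ end. Its sequence did hold the E-box. In mm9, 2 copies of CACGTG lay within 1 kb of the 5′ end of a Hlf transcript, 559 bp upstream of one and 47 bp downstream of another, and both were outside every mm9 region. Those 5′ ends lay 8982 and 1227 bp inside the gene from its outermost start. Inside the mm10 gene or within 5 kb of its 5′ end, the only relaxed region was in replicate 2, with a signal of 6.46. It lay 27.2 kb downstream of the 5′ end used in mm10, at rank 40755 of 44551. The RefSeq promoter of Hlf held no CACGTG. It held CACATG, as 11.6% of all promoters did, and the cAMP response element TGACGTCA, as 2.26% did.

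Nfil3, the D-box repressor, at chr13:52967209-52982878 on the minus strand of mm10, was called in the mm9 list and not in the thresholded mm10 lists. Each replicate had a region close to its start that was not in the optimal list. The signal was 20.5 in replicate 1, at rank 6577 of 25978 and 681 bp upstream of a promoter start, still inside the RefSeq gene, whose outer end lies farther upstream. In replicate 2 it was 10.4, at rank 16012 of 44551 and 687 bp upstream. The mm9 peak was 636 bp upstream of its start, with a signal of 37.3, above 20.9% of mm9 peaks. Its CACGTG began 30 bp upstream of the summit, so that it fell outside a window of 25 bp. The same 101 bp held TTGCGTAA, a D-box-like string on the other strand, 22 bp from the summit. Only 0.0471% of all mm9 windows held that string, which was searched for after the sequence had been seen.

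**Figure D2:**
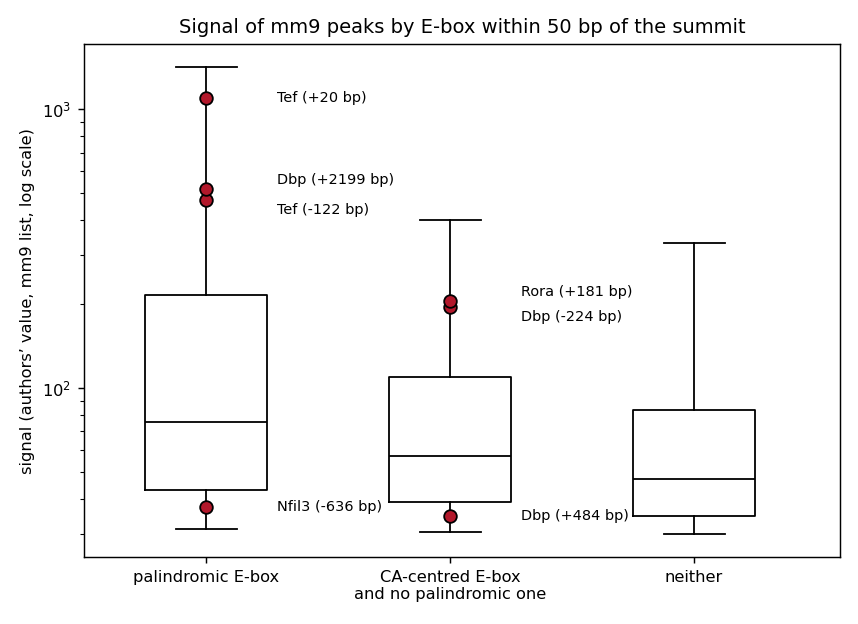
Signal of mm9 peaks (authors' value, log scale) by the E-box found within 50 bp of the summit. Boxes show the quartiles and the median of all peaks of a class, whiskers the 5 and 95 percentiles, and red points the 7 peaks at the clock genes, each with its distance from the nearest 5′ end. The strongest 3 of them hold CACGTG, while Nfil3 at 37.3 and the Dbp peak 484 bp from a start at 34.8 are the weakest.

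Among the 7 peaks, signal ran from 1095 to 34.8 in mm9, and the E-box went with it only in part. The peaks with CACGTG had signals of 1095, 518, 474 and 37.3, and those with CACATG alone had 205, 196 and 34.8, so the classes overlapped. Over all mm9 peaks the medians were 75.5 with CACGTG and 57.2 with CACATG alone. Bases beside the core also varied. The nearest CACGTG was CCACGTGA at the downstream start of Tef, the form of 27.8% of such copies over all peaks. It was ACACGTGA in Dbp intron 2 (9.998%), CCACGTGC at the upstream start of Tef (7.95%) and CCACGTGG at Nfil3 (10.2%).

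**Figure D3:**
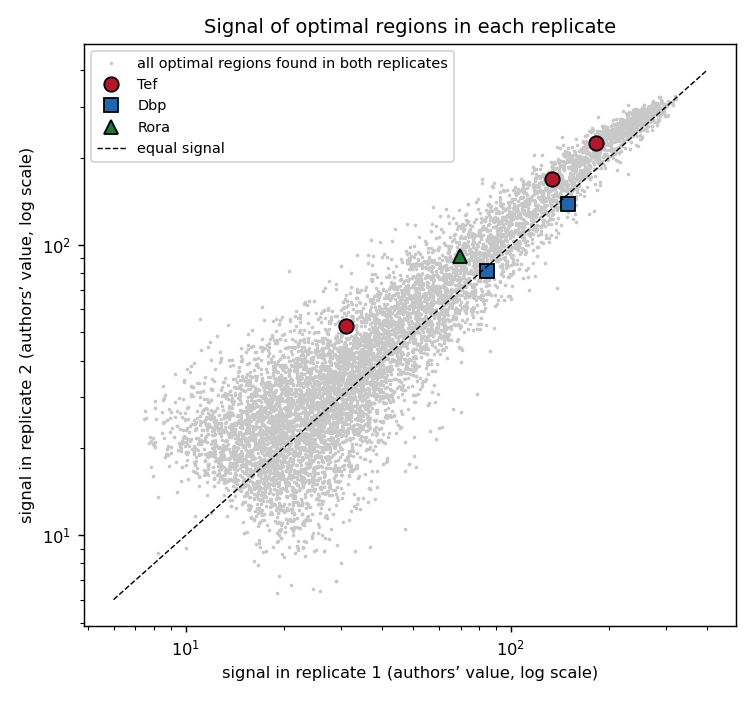
Signal of each optimal region in replicate 1 (horizontal axis) and replicate 2 (vertical axis), the authors' values on log scales, for all regions found in both (grey) and for the sites at Tef, Dbp and Rora (coloured). The dashed line marks equal signal. The 6 sites lie inside the cloud of all regions, 4 above the line and 2, both of Dbp, just below it.

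Of the 6 sites, 2 held the same place in the order of both replicates, and the other 4 exchanged places with a neighbour. The strongest of the 6 in the optimal list, the Tef region 346 bp upstream of the downstream start, and the weakest, the further Tef region beside it, kept their places in each replicate. The Dbp site inside the gene and the upstream start of Tef exchanged places between the replicates, at 149 and 134 in replicate 1 and at 138 and 169 in replicate 2, so their order is not fixed by these data. The same held for the Dbp region upstream of the start and the Rora site, at 84.1 and 69.5 in replicate 1 and at 81.3 and 91.5 in replicate 2. The log2 ratio of replicate 2 over replicate 1 had a median of 0.32 over the 6 sites, with an SD of 0.32. Over all optimal regions found in both replicates, the median was 0.18 with an SD of 0.50. The ratio was 0.76 at the weaker Tef region and -0.11 at the Dbp site inside the gene.

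The CACGTG copies at these genes that lay inside a USF1 region were at Dbp, Tef and Nfil3. Within the genes and 5 kb of their 5′ ends there were 186 copies in mm9, of which 7 lay inside a USF1 region. Over all chromosomes with peaks, 2.46% of 262836 copies did, so that most copies lay outside a region in the genome as at these genes. Rora alone carried 113 copies, of which 0 lay inside a region, although its mm9 peak held a CACATG. Npas2 had 28, Arntl 13, Clock 11 and Hlf 8, also with 0 inside. Dbp had 2 copies, both inside the region in intron 2. Within 1 kb of a 5′ end, 5 of 8 copies lay inside a region, 4 at Tef and 1 at Nfil3, where 21.1% of all such copies at protein-coding genes did. Copies that share a region cannot be counted as separate binding events: those at Tef fell in 2 mm9 regions. Near the downstream start of Tef the mm10 optimal list held 2 regions, with summits 202 bp apart.

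**Figure D4:**
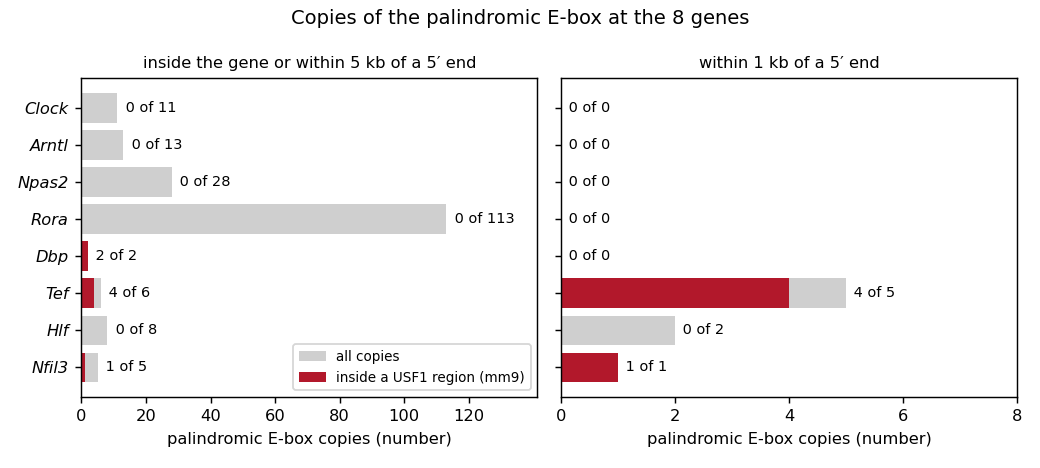
Number of palindromic E-box copies in mm9 at each of the 8 genes, within the gene or 5 kb of a 5′ end (left) and within 1 kb of a 5′ end (right). Grey bars give all copies and red bars those inside a USF1 region, with the counts beside them. Rora has the most copies, 113, with 0 inside a region, and Tef has 4 of 5 inside near its starts.

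Other genes of the loop were bound as well. Of 16 clock repressors and regulators of their stability, 7 had an optimal summit within 1 kb of a 5′ end and 10 had one within 5 kb or inside the gene. The shares of all genes given above, 12.6% and 22.8%, are the background for these counts too. The strongest promoter site among them was at Cry1, a repressor of CLOCK and BMAL1, with a signal of 399 against the 413 of Tef.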

How the data were processed

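ChIP-seq of USF1 in CH12.LX cells was deposited as lists of regions with a signal value for each. Per the deposited readme files, the relaxed mm10 lists came from each replicate's alignments, or both, together with 1 undescribed file; the optimal and conservative lists were thresholded from them by IDR, which compares ranks between lists. The mm9 list was made from both replicates' mm9 alignments. The sources used here name no caller, aligner or threshold. Control libraries were not used here. The authors' signal was compared only within a build.

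Summits were column 2 plus column 10, given 1-based. Overlap needed 1 bp. Starts in mm10 were the outer end of the RefSeq (GRCm38.p6) gene and the starts of its promoters, with strand from the promoter table for 17274 genes and from Gencode vM1 for 3995; of 21900 protein-coding genes, 21269 were used. In mm9, all protein-coding transcripts of vM1 (22222 genes) and the NCBIM37 sequence were used. Coordinates were never converted. Motifs were searched on both strands within 50 bp of summits (101 bp). Python 3.11.15, pandas 2.3.3 and pysam 0.24.0 were used, and the gene calling was tested on simulated data.

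No statistical test was made: there is 1 group, and the members, gene lists and motifs were chosen with earlier results of these data known. All 8 genes are named; of the other clock genes, the strongest promoter site is. A list of paralogs is not reported here. Alternatives covered the list, the distance, the E-box window, the overlap, the stronger 50% of regions, and each replicate alone.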

Additional observations from a re-analysis of the deposited data

How the results depend on the processing

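Of 29 alternative values, 26 stayed close to those reported (counts within 1.5 times). Counts and median signals cannot reverse. Only the median log2 ratio between replicates could, and it stayed at 0.32 in its 2 alternatives, which used the same 6 regions. The number of genes with a summit within 1 kb of a 5′ end was 4 in the mm9 list with every protein-coding transcript, against 2 in the optimal list, because Rora and Nfil3 were added. With the strongest regions of 1 replicate alone, as many as the optimal list holds, it was 2 without replicate 1 and 3 without replicate 2. The added gene was Nfil3. By the wider rule the count was 3 without replicate 1 and 4 without replicate 2, and the number of sites 6 and 7. Within 5 kb but without the gene body, the count of genes was 2, Dbp and Tef, because Rora dropped out. The median signal of the 6 sites was 109 without replicate 2 and 115 without replicate 1, against 228 in the optimal list. Each list has its own range of signal, so these values show no change in binding. The number of mm9 peaks with CACGTG was 3 at a window of 25 bp and 4 at 100 bp. At 25 bp, 2 of the 7 peaks held neither E-box form, against 26.0% of all mm9 peaks. No paired analysis was possible because there is only 1 group. With depth unknown and no control library used here, the absence of a region at Clock, Arntl, Npas2 or Hlf says only that none passed the authors' thresholds.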
